A study of Mus musculus with 6 samples.

Results

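This report concerns the genes of the Wnt pathway in whole hearts of mouse embryos at embryonic day 13.5, namely the secreted Wnt ligands, their Frizzled and LRP receptors, the R-spondin proteins with their receptors and ligases, the secreted inhibitors, and the feedback targets and TCF family factors. The members were the rows of the deposited count table whose symbol, as the authors listed it, was a Wnt, Fzd, Sfrp1 to Sfrp5, Dkk1 to Dkk4, Rspo, Lgr4 to Lgr6, Lrp5, Lrp6, Axin2, Lef1, Tcf7, Nkd1, Nkd2, Notum, Wif1, Znrf3 or Rnf43. This gave 49 of 45792 genes, comprising 15 ligands, 10 Frizzled receptors, 2 LRP co-receptors, 8 genes of the R-spondin axis, 9 secreted inhibitors and 5 feedback targets and TCF family factors. Of these, 41 had enough reads to be tested, among 17125 genes tested in all. A further 6 genes of these families (Wnt3, Wnt3a, Wnt8a, Wnt8b, Dkk4 and Rspo4) had 0 or 1 read over the 6 hearts, were listed without a symbol in the authors' table and were not members.

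Messenger RNA was sequenced from 3 control hearts, labelled wild-type, and 3 mutant hearts, labelled Tie2Cre INO80 flox/flox, all of strain C57BL/6 by their labels, although the methods describe the transgenic animals as of mixed background. Tie2Cre expresses the recombinase in endothelial cells, the endocardium included, and in their descendants, so that Ino80, which encodes the ATPase of a chromatin remodelling complex, was to be lost there and kept in cardiomyocytes and epicardium. By the study's methods, Cre-carrying males with 1 floxed allele were mated with Ino80 fl/fl females and controls were littermates, so that control embryos of this cross would carry a floxed allele too, which their label does not show, and whether any carried Cre is not given. Labels alone name the groups, because Ino80 counted over its whole length in whole hearts (31.5 ± 1.26 CPM in control and 34.0 ± 2.35 CPM in mutant hearts, SD, n = 3 each) did not tell the groups apart, and the deleted exon was not counted on its own.

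Wnt proteins are secreted lipid-modified signals that bind a Frizzled receptor. With LRP5 or LRP6 as co-receptor they stabilise beta-catenin, which then switches on target genes through TCF and LEF factors, while other Wnt proteins act through Frizzled, ROR and RYK receptors on cell polarity and movement. Several targets of beta-catenin, such as Axin2, Nkd1, Notum, Znrf3 and Rnf43, dampen the signal and are read as its footprint. In the developing heart the pathway is known for its part in the growth of the cushions and valves, in the outflow tract and in the epicardium.

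In brief, 14 of the 41 tested members stood higher and 3 lower in mutant hearts at an unadjusted p below 0.05 (edgeR's quasi-likelihood test), which is 34.1% and 7.32% of them, against 9.48% and 9.98% of all genes tested. The 14 were the ligands Wnt5a, Wnt11 and Wnt4, the receptors Fzd2, Fzd7 and Fzd8, the ligase Rnf43, the inhibitors Sfrp1, Sfrp5 and Dkk3, and Axin2, Lef1, Tcf7 and Nkd1. The 3 lower ones were Fzd4, Sfrp2 and Wif1. After Benjamini-Hochberg adjustment over all genes, edgeR called 0 members and 0% of all genes past an adjusted p of 0.05, and the smallest adjusted p of a member was 0.083. DESeq2, the program of the study's methods, called 8 members higher, against 2.63% of all genes, and 1 lower, against 3.22%. The 8 were Wnt5a, Wnt11, Fzd2, Fzd8, Sfrp1, Dkk3, Axin2 and Tcf7, and the 1 was Sfrp2. Every mutant heart lay above every control heart for 16 tested members, or 39.0%, against 14.3% of all genes, and below for 2, or 4.88%, against 12.8%. The median log2 fold change of the 41 members was 0.21, and that of all genes was -0.0017. Rnf43 and Notum reached the level of the filter on low counts in 2 control hearts and in all 3 mutant hearts, so that they were kept through the mutant hearts, and among the 39 members that reached it in all 3 control hearts 13 were higher and 3 lower.

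**Figure D1:**
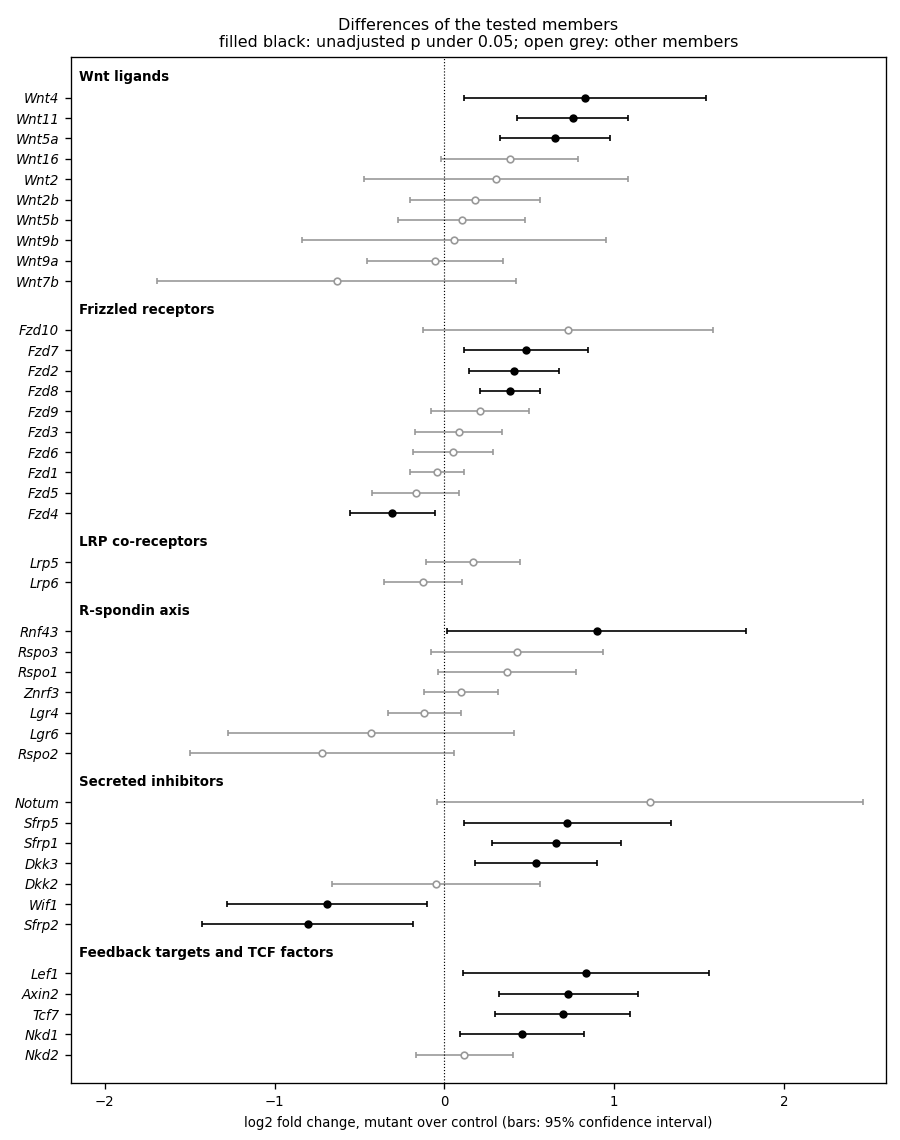
Log2 fold change of each of the 41 tested members, mutant over control hearts, on the horizontal axis with its 95% confidence interval from edgeR, grouped by role. Filled black points are the 17 members with an unadjusted p below 0.05, of which 14 lie right of 0, and open grey points are the other 24.

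The hearts had between 28948836 and 89675692 counts, so that 1 read was worth 0.0108 to 0.0342 CPM (counts per 1e6 counts after TMM scaling, which corrects library totals for composition). Y-linked Ddx3y was between 79.3 and 98.8 CPM in control replicates 1 and 2 and mutant replicate 3 and at 0 in the other 3 hearts, so both sexes were present in both groups. For 10 of the 14 members that were higher, the control heart closest to the mutant hearts was replicate 1, and for 11 of them the most distant was replicate 2. This ordering was not counted over all genes. Over all tested genes, the chi-square per degree of freedom of control replicate 1 was 23.06 and 28.11 against mutant replicates 2 and 3. It was 46.7 against mutant replicate 1, and 37.29 and 72.15 against control replicates 2 and 3. The ordering is thus not shown to be particular to the Wnt genes.

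Levels of different genes can be compared only per length, and for this CPM were divided by the annotated exon length (RPKM). Among the ligands Wnt5a stood highest, at 5.46 ± 1.20 RPKM in control and 8.60 ± 0.34 RPKM in mutant hearts (SD, n = 3 each), or 33.5% ± 4.25 and 38.2% ± 1.30 of the summed ligand RPKM. Wnt5b at 2.82 ± 0.53 and 3.04 ± 0.35 RPKM and Wnt11 at 2.05 ± 0.39 and 3.47 ± 0.12 RPKM followed, and the ranges of these 2 over the hearts overlapped in both groups. Wnt2b, Wnt2, Wnt9a and Wnt4 had mean RPKM over the 6 hearts between 1.19 and 1.30, and Wnt16 and Wnt9b were at 0.84 and 0.60. The other 6 ligands, Wnt1, Wnt6, Wnt7a, Wnt7b, Wnt10a and Wnt10b, had means over the 6 hearts below 0.1 RPKM. The summed RPKM of the 15 ligands was 16.3 ± 2.49 in control and 22.5 ± 0.50 in mutant hearts.

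**Figure D2:**
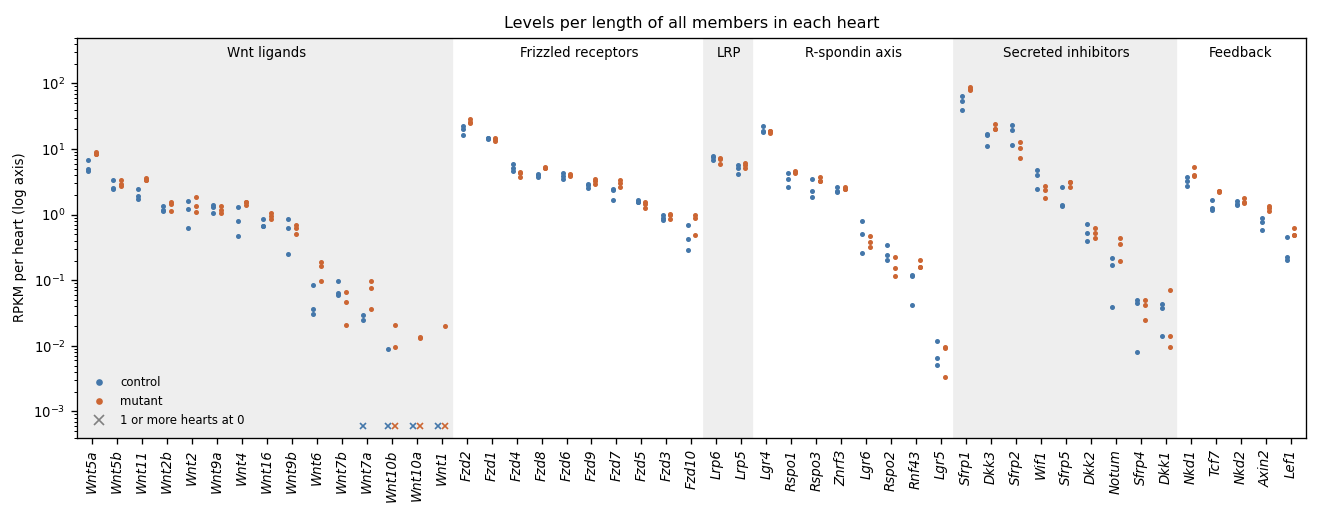
RPKM of all 49 members in each heart on a log axis, control in blue and mutant in orange, ordered within each role by the mean of the 6 hearts; crosses mark genes with at least 1 heart at 0. Sfrp1 is the highest member, at a mean of 68.7 RPKM, and the members span from there to under 0.01 RPKM.

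Wnt5a, a ligand best known for signalling through ROR2 without beta-catenin (chromosome 14, 28504750 to 28527448, GRCm38), was at 53.5, 36.2 and 38.4 CPM in control replicates 1 to 3 and at 65.6, 70.3 and 65.9 CPM in mutant replicates 1 to 3. All mutant hearts lay above all control hearts, and control replicate 1 lay between the other control hearts and the mutant hearts. This was a log2 fold change of 0.65 (SE, the standard error, 0.14, adjusted p = 0.091 with edgeR, 0.0013 with DESeq2). Wnt11, a ligand with known roles in the outflow tract (chromosome 7, 98835112 to 98855195), was at 10.3, 7.83 and 7.25 CPM in control and 14.0, 14.2 and 14.9 CPM in mutant hearts. The groups were again apart, with the mutant hearts within 1 CPM of each other. Here the log2 fold change came to 0.76 (SE 0.14, adjusted p = 0.083 with edgeR, 0.00050 with DESeq2). Wnt4, a ligand expressed by endocardium in the atrioventricular canal (chromosome 4, 137277489 to 137299726), was at 5.41, 1.97 and 3.33 CPM in control and 6.65, 6.51 and 5.98 CPM in mutant hearts. Its groups did not overlap, but the control hearts spread widely. Its log2 fold change of 0.83 (SE 0.31, adjusted p = 0.20 with edgeR, 0.098 with DESeq2) came to 0.55 when control replicate 2 was left out and to 1.26 without control replicate 1.

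For the other 7 tested ligands the data left the direction undecided. Wnt16 was at 3.18 ± 0.46 CPM in control and 4.17 ± 0.39 CPM in mutant hearts (SD, n = 3 each), with no overlap, and a 95% interval of the log2 fold change from -0.019 to 0.79. Wnt2b, Wnt2, Wnt5b and Wnt9b had log2 fold changes from 0.057 to 0.31, and Wnt9a and Wnt7b had -0.054 and -0.63, all with intervals that included 0. Wnt9b, an endocardial ligand of the valves, was thus at 2.64 ± 1.41 and 2.76 ± 0.41 CPM, and its interval from -0.84 to 0.95 left room for a change in either direction. Wnt6 and Wnt7a were too low for the test but not equally low in the groups. Wnt6 had 3, 2 and 6 reads in control and 33, 9 and 12 reads in mutant hearts, and Wnt7a had 3, 0 and 3 reads against 29, 5 and 7. Scaled to CPM, all mutant hearts lay above all control hearts for both, at no more than 0.41 CPM. With every gene of at least 1 count tested, their unadjusted p were 0.017 for Wnt6 and 0.022 for Wnt7a, and their adjusted p 0.20 and 0.24 with edgeR. Wnt1, Wnt10a and Wnt10b had at most 3 reads in any heart.

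All 10 Frizzled receptors were detected in every heart. Per length Fzd2 was highest, at 19.8 ± 2.95 RPKM in control and 26.2 ± 2.12 RPKM in mutant hearts (SD, n = 3 each), above Fzd1 at 14.5 ± 0.25 and 14.1 ± 0.78 RPKM. Fzd4 and Fzd8 followed at 5.22 ± 0.62 and 3.99 ± 0.19 RPKM in control hearts and stood in the reverse order in mutant hearts, at 4.22 ± 0.37 and 5.22 ± 0.16 RPKM, with Fzd6 close to the lower of them at a mean of 3.97 RPKM over the 6 hearts. Fzd10, the lowest, had a mean of 0.63 RPKM over the 6 hearts.

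Fzd2, a receptor that binds Wnt5a among others (chromosome 11, 102604396 to 102608058), was at 81.8, 60.6 and 74.8 CPM in control and 90.045, 93.5 and 105 CPM in mutant hearts. Fzd8 (chromosome 18, 9212163 to 9218136) was at 23.8, 22.7 and 25.0 CPM in control and 31.2, 30.2 and 32.2 CPM in mutant hearts. The groups were apart in both, and for Fzd8 the gap between them exceeded the range within either group. The log2 fold changes were 0.41 for Fzd2 (SE 0.12, adjusted p = 0.14 with edgeR, 0.034 with DESeq2) and 0.39 for Fzd8 (SE 0.08, adjusted p = 0.083 with edgeR, 0.0041 with DESeq2). Fzd7 (chromosome 1, 59482424 to 59486955) was at 10.7, 7.66 and 11.1 CPM in control and 13.8, 15.2 and 12.1 CPM in mutant hearts, likewise without overlap, with a log2 fold change of 0.48 (SE 0.16, adjusted p = 0.17 with edgeR). Fzd4, the receptor for Norrin on endothelial cells (chromosome 7, 89404355 to 89413134), went the other way, at 31.4, 34.2 and 39.6 CPM in control and 29.4, 30.1 and 25.5 CPM in mutant hearts. Its highest mutant heart lay just below its lowest control heart. Its log2 fold change was -0.31 (SE 0.11, adjusted p = 0.19 with edgeR, 0.14 with DESeq2) and -0.21 without control replicate 3.

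Of the other 6 Frizzled receptors, Fzd3, Fzd6, Fzd9 and Fzd10 had log2 fold changes from 0.051 to 0.73 and Fzd1 and Fzd5 -0.041 and -0.17, none past an unadjusted p of 0.05. For Fzd1 the interval was narrow, from -0.20 to 0.12. The co-receptors stood at 7.37 ± 0.53 RPKM for Lrp6 and 5.02 ± 0.73 RPKM for Lrp5 in control hearts (SD, n = 3 each). Lrp6 was at 92.9, 102 and 107 CPM in control and 101, 95.2 and 80.3 CPM in mutant hearts, overlapping, with a log2 fold change of -0.13 and an interval from -0.35 to 0.10. Lrp5 had 0.17, with an interval from -0.11 to 0.45.

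R-spondins are secreted proteins that, through LGR4 to LGR6, hold back the ligases ZNRF3 and RNF43, which would otherwise remove Frizzled from the cell surface. Lgr4 was the main receptor of the 3, at 20.0 ± 2.34 RPKM in control and 18.5 ± 0.91 RPKM in mutant hearts (SD, n = 3 each), while Lgr6 averaged 0.46 RPKM and Lgr5 had at most 9 reads in a heart. Lgr4 was at 113, 133 and 107 CPM in control and 111, 102 and 112 CPM in mutant hearts, overlapping, with a log2 fold change of -0.12 and an interval from -0.33 to 0.096. Rspo1 and Rspo3 had log2 fold changes of 0.37 and 0.43 and Rspo2, the lowest of these ligands, -0.72, with intervals that just included 0. Rspo3 was past an adjusted p of 0.05 with edgeR without control replicate 1, at 0.74 (adjusted p = 0.046). The ligase gene Znrf3 was at 17.8, 20.7 and 17.6 CPM in control and 21.1, 19.8 and 19.2 CPM in mutant hearts, also overlapping, with 0.099. Its paralogue Rnf43 (chromosome 11, 87662722 to 87735539) was far lower, at 0.79, 0.27 and 0.77 CPM in control and 1.32, 1.06 and 1.06 CPM in mutant hearts. The groups were apart, and control replicate 2 had only 8 reads. This was a log2 fold change of 0.90 (SE 0.38, adjusted p = 0.25 with edgeR, 0.29 with DESeq2), and 0.57 without control replicate 2.

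The secreted inhibitors held the most abundant member. Sfrp1, a secreted Frizzled-like decoy (chromosome 8, 23411502 to 23449632), was at 53.2 ± 13.04 RPKM in control and 84.2 ± 4.70 RPKM in mutant hearts (SD, n = 3 each), or 57.5% ± 1.85 and 68.9% ± 3.42 of the summed RPKM of the 9 inhibitors. In CPM its hearts were at 286, 173 and 239 in control and 366, 349 and 390 in mutant. The groups were apart, with control replicate 1 again the highest control heart. Between the groups the log2 fold change was 0.66 (SE 0.17, adjusted p = 0.11 with edgeR, 0.0032 with DESeq2). Sfrp2, its paralogue (chromosome 3, 83766321 to 83774316), went in the opposite direction, at 49.4, 24.7 and 42.2 CPM in control and 27.9, 22.4 and 15.9 CPM in mutant hearts. Here the groups overlapped, because control replicate 2 lay below mutant replicate 1. Even so, the log2 fold change was -0.81 (SE 0.27, adjusted p = 0.18 with edgeR, 0.031 with DESeq2), and its share of the inhibitors' summed RPKM was 19.1% ± 2.32 in control and 8.38% ± 2.16 in mutant hearts. Without control replicate 1 the log2 fold change of Sfrp2 was -0.59, past an unadjusted p of 0.05 neither there nor without control replicate 3 or mutant replicate 3.

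Dkk3, a divergent member of the Dickkopf family (chromosome 7, 112116017 to 112159057), was at 56.7, 37.3 and 55.2 CPM in control and 80.5, 67.8 and 68.3 CPM in mutant hearts, without overlap. For Dkk3 the log2 fold change was 0.54 (SE 0.16, adjusted p = 0.14 with edgeR, 0.028 with DESeq2). Sfrp5 (chromosome 19, 42197971 to 42202252) was at 2.71, 5.04 and 2.56 CPM in control and 5.01, 6.04 and 5.95 CPM in mutant hearts, with control replicate 2 just inside the mutant range. For Sfrp5 it was 0.72 (SE 0.27, adjusted p = 0.20 with edgeR), and it ranged from 0.55 without control replicate 3 to 1.10 without control replicate 2. Wif1, which encodes an inhibitor that binds Wnt proteins (chromosome 10, 121033960 to 121100650), was at 5.96, 9.84 and 11.6 CPM in control and 6.66, 5.78 and 4.34 CPM in mutant hearts. Control replicate 1 lay within the mutant range. The fitted log2 fold change was -0.69 (SE 0.26, adjusted p = 0.20 with edgeR), and it ranged from -0.48 without control replicate 3 to -0.92 without control replicate 1 (adjusted p = 0.048 with edgeR). The 2 inhibitors that were tested and did not pass an unadjusted p of 0.05 were Dkk2, at -0.048, and Notum, at 1.21 with an interval from -0.043 to 2.47. Notum, a deacylase that removes the lipid of Wnt proteins and is itself a target of the pathway, had 20, 12 and 3 reads in control and 98, 20 and 25 reads in mutant hearts. Dkk1 and Sfrp4 had at most 16 reads in a heart and were not tested.

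Among the 5 feedback targets and TCF family factors, 4 stood higher at an unadjusted p below 0.05 and none was lower, and for these 4 the groups did not overlap, where 9.48% of all genes were higher at that p and 14.3% higher without overlap. The targets Rnf43, Znrf3 and Notum were grouped with other roles above. Of them only Rnf43 passed that p, and Znrf3 had a log2 fold change of 0.099 with overlapping groups. Axin2, a scaffold of the beta-catenin destruction complex and the most widely used target gene (chromosome 11, 108920349 to 108950783), was at 4.97, 3.23 and 4.26 CPM in control and 6.95, 6.35 and 7.45 CPM in mutant hearts. Tcf7, which encodes the factor TCF1 (chromosome 11, 52252371 to 52283014), was at 4.47, 3.06 and 3.36 CPM in control and 5.97, 5.97 and 5.78 CPM in mutant hearts. In both genes the mutant hearts stood close together and control replicate 1 was the highest control heart. The log2 fold changes were 0.73 for Axin2 (SE 0.18, adjusted p = 0.11 with edgeR, 0.014 with DESeq2) and 0.70 for Tcf7 (SE 0.17, adjusted p = 0.11 with edgeR, 0.020 with DESeq2). Lef1, the factor most closely related to TCF1 (chromosome 3, 131110471 to 131224356), was at 4.07, 1.77 and 1.98 CPM in control and 5.44, 4.3 and 4.27 CPM in mutant hearts. Control replicate 1 was nearer to the mutant hearts than to its own group. For Lef1 the log2 fold change was 0.84 (SE 0.31, adjusted p = 0.21 with edgeR, 0.11 with DESeq2), and it ranged from 0.63 without control replicate 2 to 1.32 without control replicate 1 (adjusted p = 0.021 with edgeR). It was past an unadjusted p of 0.05 in 3 of 6 fits that left out 1 heart, and not without control replicate 2 or 3 or mutant replicate 1. Nkd1, which encodes an inhibitor of Dishevelled (chromosome 8, 88521354 to 88594884), was at 14.7, 17.1 and 12.7 CPM in control and 24.7, 17.7 and 18.5 CPM in mutant hearts. Mutant replicate 1 stood well above the others, and without it the log2 fold change of 0.46 (SE 0.16, adjusted p = 0.19 with edgeR) was 0.29. Nkd2 was at 7.14 ± 0.51 CPM in control and 7.77 ± 0.70 CPM in mutant hearts (SD, n = 3 each), a difference within the spread, with an interval of the log2 fold change from -0.17 to 0.40.

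**Figure D3:**
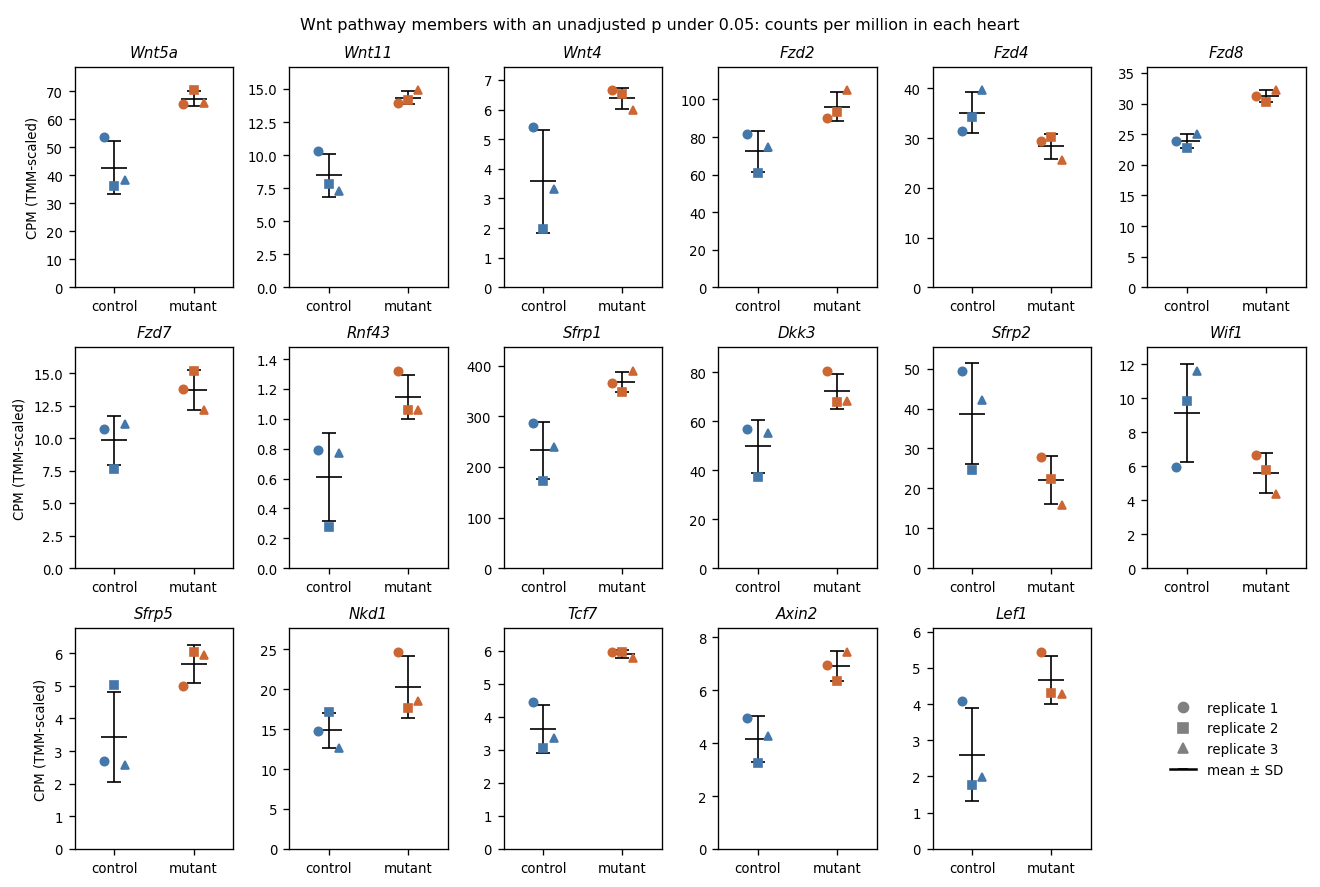
CPM in each heart for the 17 members with an unadjusted p below 0.05, on linear axes from 0; circles, squares and triangles are replicates 1, 2 and 3, and bars are the mean and SD of 3 hearts. The groups overlap in Sfrp2, Wif1 and Sfrp5, and in 10 of the 14 members that were higher the topmost control point is replicate 1. That ordering was not counted over all genes.

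The promoters of the members were searched for the core site of TCF and LEF factors, which read out beta-catenin. The search covered the 250 bases before each annotated start site, in RefSeq on GRCm38.p6, for which 32 of the 49 members had at least 1 window, and both strands. The strict form CTTTGAT was in the windows of Wnt11 and Wnt5b, and it was in 3.21% of all 32851 windows. A wider form, which includes the strict one (CTTTG followed by any 2 of the letters A and T), was in 5 of 40 windows of members (Dkk1, Fzd7, Lef1, Wnt11 and Wnt5b), and in 14.8% of all windows. Only 9 of the 14 members that were higher had a window, and of these 9 the wider form was in 3 and the strict form in 1. These are counts of genes, some with more than 1 window, and the share of all genes was not counted. They cannot be set against the shares of windows. For Lef1 the match was in 1 of its 4 windows and not in the first one, which is printed here. Shown are the 2 higher genes with a match in the window printed and, for contrast, the feedback targets Axin2 and Lef1, in whose printed windows these letters did not occur. Sequences run 5′ to 3′ on the strand of the gene, all on the plus strand, and end at the base before the start site. Capitals mark a match, here on the reverse strand of the gene, and it begins 51 bases before the start in Wnt11 and 130 bases before it in Fzd7. The windows are chr7:98834862-98835111 for Wnt11, chr1:59481897-59482146 for Fzd7, chr11:108920099-108920348 for Axin2 and chr3:131110047-131110296 for Lef1.
Wnt11: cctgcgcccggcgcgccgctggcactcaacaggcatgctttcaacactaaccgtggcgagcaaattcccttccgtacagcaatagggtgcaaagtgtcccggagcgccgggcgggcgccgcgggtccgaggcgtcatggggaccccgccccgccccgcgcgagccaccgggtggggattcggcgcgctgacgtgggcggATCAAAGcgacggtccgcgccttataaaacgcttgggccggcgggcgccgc
Fzd7: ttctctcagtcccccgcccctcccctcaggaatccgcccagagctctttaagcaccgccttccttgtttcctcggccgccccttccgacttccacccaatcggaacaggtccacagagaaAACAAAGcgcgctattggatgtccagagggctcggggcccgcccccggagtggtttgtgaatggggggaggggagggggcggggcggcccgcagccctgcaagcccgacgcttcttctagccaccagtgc
Axin2: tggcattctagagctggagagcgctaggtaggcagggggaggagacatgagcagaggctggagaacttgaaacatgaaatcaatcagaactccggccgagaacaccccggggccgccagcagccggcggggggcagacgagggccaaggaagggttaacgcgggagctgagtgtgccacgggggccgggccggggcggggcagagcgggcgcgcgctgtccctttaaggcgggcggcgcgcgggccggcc
Lef1: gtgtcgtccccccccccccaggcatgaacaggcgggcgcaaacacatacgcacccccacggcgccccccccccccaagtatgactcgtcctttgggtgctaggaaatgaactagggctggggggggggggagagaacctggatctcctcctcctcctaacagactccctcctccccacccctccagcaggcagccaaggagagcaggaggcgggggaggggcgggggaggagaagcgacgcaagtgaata

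The rest of the pathway was read from lists compiled from general knowledge, but with earlier results of these data known. Their shares therefore describe these hearts and are not independent of them. Of 15 other genes known as targets of beta-catenin in some tissue, 13 were tested, and 7 of these were higher and 1, Isl1, lower past an unadjusted p of 0.05. That was 53.8% and 7.69% of them, against 9.48% and 9.98% of all genes tested. The median log2 fold change of the 13 was 0.32. Fst, which encodes the activin antagonist follistatin, was at 1.04 ± 0.39 CPM in control and 3.02 ± 0.27 CPM in mutant hearts (SD, n = 3 each), and the log2 fold change was 1.53 (SE 0.28, adjusted p = 0.081 with edgeR, 0.00037 with DESeq2). Bmp4 and Msx2, a ligand and a target of the BMP pathway as well, had log2 fold changes of 0.74 and 0.89 and were called higher by DESeq2. These genes answer to other signals too.

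Of 15 other extracellular modulators, 12 were tested, with 6 higher and 1 lower at an unadjusted p below 0.05. That was 50% and 8.33% of them, against 9.48% and 9.98% of all genes tested. Reck, which with Adgra2 forms the receptor complex for Wnt7 ligands on endothelial cells, was at 17.0 ± 2.34 CPM in control and 23.9 ± 1.68 CPM in mutant hearts (SD, n = 3 each), a log2 fold change of 0.49 (SE 0.11, adjusted p = 0.10 with edgeR, 0.013 with DESeq2). Adgra2 had 0.35, with no overlap. Tspan12, which encodes the partner of Fzd4 in Norrin signalling, was at 63.0 ± 9.25 and 46.0 ± 0.77 CPM, with -0.45 (SE 0.10, adjusted p = 0.10 with edgeR, 0.0072 with DESeq2). Fzd4 and Tspan12 were thus both lower, while Ndp, the Norrin gene, had 0.12 with an SE of 0.30.

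Of 19 genes of the beta-catenin core, 3 stood higher at an unadjusted p below 0.05 and 0 lower, and the median log2 fold change was 0.043. The 3 were 15.8% of the list, where 9.48% of all genes tested were higher and 9.98% lower. Dvl2, a Dishevelled protein gene, had 0.39 and Bcl9, a beta-catenin cofactor gene, 0.37 (adjusted p = 0.0076 and 0.021 with DESeq2), and Pygo2, its partner, had 0.22. Ctnnb1, which encodes beta-catenin, was at -0.0018 with an SE of 0.08. Of 12 tested genes of the non-canonical receptors and planar polarity, 4 were higher (Ptk7, Vangl2, Prickle1 and Ror2, from 0.22 to 0.42) and Ryk was lower at -0.17. None of these 5 was called by DESeq2. At an unadjusted p below 0.05 the shares of this list were 33.3% higher and 8.33% lower, against 9.48% and 9.98% of all genes tested. Porcn and Wls, which are needed to secrete every Wnt protein, had 0.040 and 0.031. Ctnnb1, Ryk, Porcn, Wls, Isl1 and Ndp were singled out after their values were seen, as were the marker genes named here.

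**Figure D4:**
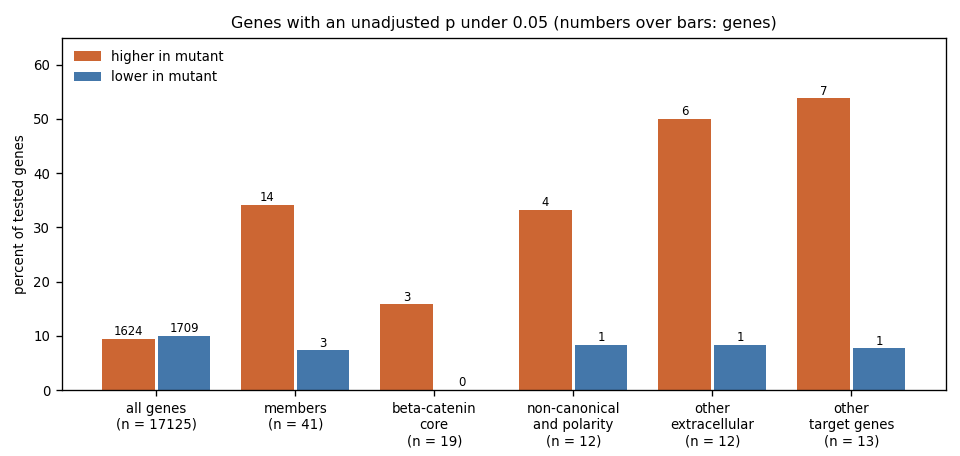
Percent of tested genes with an unadjusted p below 0.05, higher (orange) or lower (blue) in mutant hearts, for all genes, the members and 4 lists of other Wnt pathway genes, with the number of genes over each bar. The members are at 34.1% higher and 7.32% lower, and all genes at 9.48% and 9.98%. The members and lists were chosen with earlier results of these data known.

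Whole hearts mix many cell types, so that fewer cells of a type and less RNA per cell cannot be told apart, and marker lists are given beside these results. Of 8 epicardial genes, 3 stood higher (Upk3b, Krt19 and Lrrn4) and 1 lower (Upk1b) past an unadjusted p of 0.05, the measure used for every list here. By that measure 9.48% of all genes tested were higher and 9.98% lower. The summed level of the 8 epicardial genes was 185 to 199 CPM in control and 213 to 236 CPM in mutant hearts. Their median log2 fold change was 0.11, with 5 above 0 and 3 below, and Wt1 was at 0.0046. Of 6 endocardial genes, 1 was higher (Hapln1), and their sum was 308 to 550.2 CPM in control, lowest in replicate 2, and 542 to 579 CPM in mutant hearts. Of 8 coronary endothelial genes, 6 were lower, with 377 to 590.2 CPM in control, lowest in replicate 1, and 255 to 288 CPM in mutant hearts. Of 6 pan-endothelial genes none passed, at 724 to 910.3 and 820.1 to 869.9 CPM. Of 7 genes of cushion and valve mesenchyme, 2 were higher (Twist1 and Sox9, which is also one of the target genes above) and 2 lower (Prrx1 and Postn), at 715 to 922 and 694 to 801 CPM. The erythroid list had the embryonic globins Hbb-y and Hba-x higher and Alas2 lower, and its sum was 142 to 534 CPM in control and 916 to 1344 CPM in mutant hearts. Of 7 cardiomyocyte genes, atrial Myl7 and Myh6 were higher and 0 lower, again at an unadjusted p below 0.05. The median log2 fold change of the 7 was -0.13, with 3 above 0 and 4 below. At the same p, Dcn and Lum were lower among 6 fibroblast genes, and Lyve1 was lower among 6 macrophage genes. In both lists 3 log2 fold changes were above 0 and 3 below. The medians were -0.068 for the fibroblast and 0.055 for the macrophage genes. Of 5 smooth muscle genes, Myh11 and Actg2 were lower and Cnn1 higher at that p. For Myh11 and Actg2 the groups overlapped at low levels. Control replicate 1 was at 0.60 CPM for Myh11 and 1.02 CPM for Actg2. The mutant hearts were at 0.34 to 0.71 CPM and 0.51 to 1.03 CPM. The part of these shifts in the differences of the Wnt genes was not tested. Of lung, which expresses Wnt2 and Wnt7b, the 6 markers summed to at most 0.80 CPM in any heart, with Nkx2-1 and Cldn18 at 0 in all. Of thymus, which expresses Tcf7 and Lef1, the markers Foxn1 and Cd3e were at 0 in all hearts, and the 6 markers summed to at most 2.94 CPM, nearly all from Ccl25.

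Exons of 10 members, among them Wnt5a, Wnt11, Axin2, Lef1 and Sfrp2, overlap an annotated gene on the other strand, and as counting is not stated to have used strand, reads of the pair cannot be told apart there.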

How the data were processed

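For the deposited counts, the authors aligned paired-end reads of 76 bp with STAR 2.4.2a against GRCm38 and GENCODE vM6, then counted them on transcripts with summarizeOverlaps, without normalization; the setting for reads on several genes is not given in the sources used here. The authors' second deposited file holds their DESeq2 comparison, that is a mean normalized signal, log2 fold changes, the Wald score and p-values; only its gene symbols were used, to choose the members. The members and lists were chosen with earlier results of these data known.

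The present fits used edgeR 4.0.16 under R 4.3.3, with filterByExpr (minimum count 10, minimum total 15), TMM scaling, and the quasi-likelihood test with condition as the only term, fitted on all 17125 kept genes, with Benjamini-Hochberg adjustment over them and 0.05 as threshold. The SE is the absolute log2 fold change over the root of F. RPKM divide CPM by the union of GENCODE vM21 exons (GRCm38). Members with an unadjusted p under 0.05, those called by DESeq2 and the highest of each role were named with values in every heart. Alternatives were DESeq2 1.42.0 on the same genes, RLE size factors, 2 other filters, the replicate number as a block, each heart left out and, added after seeing the data, the level of 4 Y-linked genes as a term. No pair of libraries matched within counting noise (lowest chi-square per degree of freedom 20.5). Control replicate 1 against mutant replicate 2 had 23.06, within the 20.52 to 34.01 of the pairs of mutant hearts. Against control replicates 2 and 3 it had 37.29 and 72.15. The labels call the hearts biological replicates, and the p-values set the difference between the groups against the estimated spread between hearts. The steps were tested on simulated data. 1 result is not reported here.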

Additional observations from a re-analysis of the deposited data

How the results depend on the processing

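None of the 17 members past an unadjusted p of 0.05 reversed its direction under any alternative, while 6 of the other tested members, all not past it, did. These were Wnt9a (0.030 without control replicate 3, 0.019 without mutant replicate 3), Wnt9b (-0.30 without control replicate 2, -0.025 without mutant replicate 3, -0.015 with the Y-linked term), Fzd1 (0.0080 without mutant replicate 3), Fzd6 (-0.021 without control replicate 2), Lgr6 (0.017 without control replicate 3) and Dkk2 (0.19 without control replicate 3, 0.059 without mutant replicate 2), on the log2 scale. In fits that left out 1 heart these ran from -0.15 to 0.030 for Wnt9a, -0.30 to 0.45 for Wnt9b, -0.072 to 0.0080 for Fzd1, -0.021 to 0.13 for Fzd6, -0.75 to 0.017 for Lgr6 and -0.23 to 0.19 for Dkk2. Against 0 members higher and 0 lower past an adjusted p of 0.05 with edgeR, DESeq2 called 8 higher and 1 lower, and edgeR on all genes with at least 1 count called 6 higher (Wnt5a, Wnt11, Fzd8, Sfrp1, Dkk3 and Axin2) and 0 lower, against 0.926% and 1.21% of all genes under that filter. In fits that left out 1 heart the count ran from 0 to 8 higher and from 0 to 1 lower, and the calls were all made without control replicate 1, where Wnt5a, Wnt11, Wnt4, Rspo3, Sfrp1, Axin2, Tcf7 and Lef1 were higher and Wif1 lower. Without that heart 1.85% of all genes were called higher and 2.49% lower. The cause was not tested. At an unadjusted p under 0.05, the 14 higher members were 10 to 17 and the 3 lower ones 0 to 4 when 1 heart was left out, with 0 lower without control replicate 3 and 1 without mutant replicate 3, against 6.76% to 11.3% of all genes higher and 6.75% to 11.5% lower in these fits. Leaving out a heart kept Wnt5a, Wnt11, Fzd2, Fzd8, Sfrp1, Dkk3, Axin2 and Tcf7 under that p in 6 of 6 fits, Fzd7 in 5, Fzd4 and Nkd1 in 4, Wnt4, Lef1 and Sfrp2 in 3, and Rnf43, Sfrp5 and Wif1 in 2. The replicate numbers did not pair the hearts (correlations of same-numbered hearts from -0.12 to 0.0093). With the replicate block 15 members were higher and 2 lower at that p, against 9.71% and 10.5% of all genes. There 0 members passed the adjusted p, against 1 gene higher and 13 lower among all 17125. With the Y-linked level as a term, chosen after seeing the data, the counts were 15 and 4, against 7.74% and 7.79% of all genes. Rnf43 and Notum rest on as few as 8 and 3 reads in a control heart.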
